A study of Mus musculus with 30 samples.

Results

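Heterozygous E168d2neo/+ retinas were compared with wild-type (WT) retinas at postnatal day 10 (P10), an age at which rods and cones are still building their outer segments. The comparison takes 3 E168d2neo/+ and 3 WT libraries of the 30 libraries in the series, chosen by their genotype and age labels, and every gene that reached 5 CPM (reads scaled to the size of the library) in all 3 libraries of either group was tested, which left 12015 of the 12573 genes listed. E168d2neo/+ mice carry 1 wild-type Crx allele and 1 allele with the E168d2 frameshift, whose product lacks its C-terminal end, still binds DNA and does not activate transcription. A neomycin cassette was kept in an intron of this allele and lowers the amount of mutant protein, whereas E168d2/+ mice carry the frameshift without it. All groups were C57BL6/J mice or lines crossed back to that strain, free of the rd1 and rd8 mutations and with the strain's own Rpe65 variant, and the P10 control was C57BL6/J WT. The P21 WT libraries came from randomly sampled WT littermates of the mutant lines. Each library pooled 4 whole retinas from 1 male and 1 female mouse, so that a library is a replicate and a single animal is not. The other groups compared below are E168d2/+ and R90W/+ at P10, where R90W is a missense mutation in the DNA-binding domain, and E168d2neo/+ and WT at P21. Homozygous E168d2/d2 mice, which have no wild-type Crx allele, appear at P10 in medians against WT. The levels of Obox6 and Crx are shown for every group, which adds homozygous R90W/W at P10 and E168d2/+ and R90W/+ at P21. An alternative fit of all P10 groups also uses the homozygotes.

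CRX is a homeodomain transcription factor of photoreceptors that, together with the rod factors NRL and NR2E3, switches on the genes for visual pigments, transducin and the other proteins of phototransduction. Rods and cones use separate copies of most of these proteins, and CRX acts in both cells. Mutations in human CRX cause dominant cone-rod dystrophy and Leber congenital amaurosis.

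The E168d2neo/+ libraries held about 19300000 to 24200000 reads on genes and the WT libraries about 13900000 to 17100000 reads, so that 5 CPM stood for 69.5 to 121 reads. A gene is said below to have fallen or risen where its false discovery rate (FDR, from limma on log2(CPM + 0.1)) was at most 0.05, and it is called where it also changed at least 2-fold. Fold changes are on that log2 scale, which understates those of genes near 0. The called genes were 85 lower and 42 higher in E168d2neo/+, 0.707% and 0.35% of the genes tested. At the FDR alone 1141 genes (9.5%) fell and 1057 (8.8%) rose, the median log2 change of all genes tested was 0.03, and the libraries of the groups did not overlap for 4645 genes (38.7%). All 127 called genes are among those without overlap, so a lack of overlap does not set any called gene apart. The balance of falls and rises at the FDR alone varied with processing, from 1311 and 825 under median log-ratio scaling to 1562 and 1794 without E168d2neo/+ replicate B, where rises outnumbered falls.

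**Figure D1:**
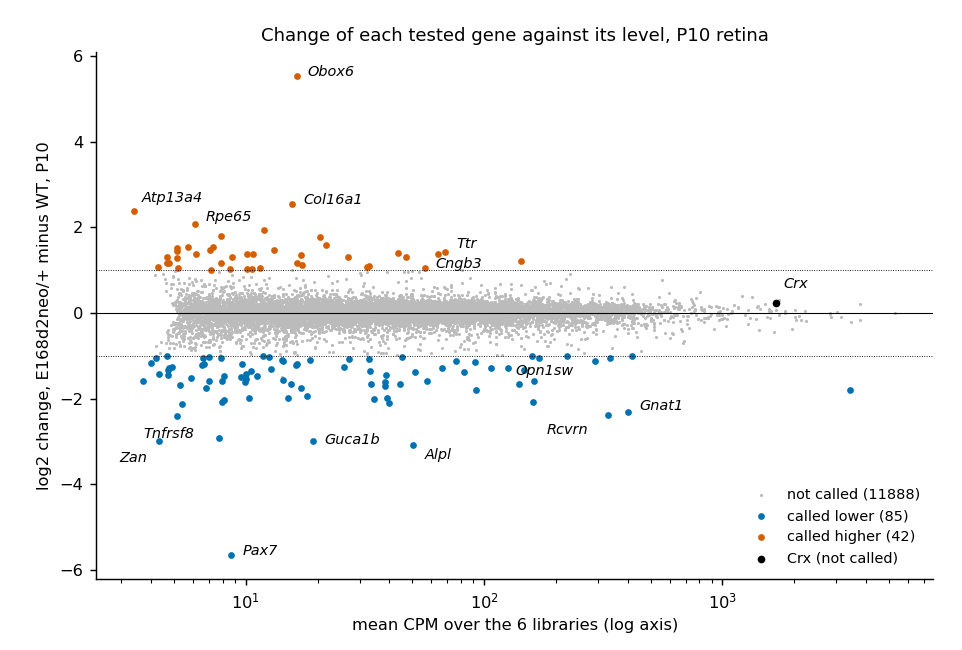
Mean level of each of the 12015 tested genes over the 6 libraries (x axis, CPM on a log scale) against its log2 change in E168d2neo/+ relative to WT (y axis), with the 85 genes called lower, the 42 called higher and Crx marked. The called falls reach into abundant genes such as Gnat1 and Rcvrn, whereas the called rises lie at low levels apart from Flot2, Tmem181b-ps and a few others.

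Crx itself was read at 1538.5, 1601.0 and 1480.9 CPM in WT and at 1846.2, 1819.8 and 1769.1 CPM in E168d2neo/+. The 3 mutant libraries lay above the 3 WT libraries, and the difference was 0.23 on the log2 scale (SE 0.052, FDR 0.0107), short of the 2-fold limit. The values count reads of both alleles together, so they do not show the share of mutant transcript. The glutamate codon for which the allele is named lies in exon 4 of 4 of the transcripts that encode 299 codons, on the minus strand at chr7:16453511-16453541 (NCBIM37, the mm9 assembly), with the codon itself at 16453525 to 16453527. The wild-type reference around it is shown 5′ to 3′ because it marks the point from which the mutant reading frame differs, with the codon in capitals.
Crx codon: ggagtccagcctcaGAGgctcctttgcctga

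The gene with the largest rise in the comparison was a neighbour of Crx. Obox6, an oocyte-specific homeobox gene, was read at 0.564, 0.575 and 0.642 CPM in WT and at 28.8, 33.2 and 34.4 CPM in E168d2neo/+, which is 9, 8 and 11 reads against 630, 642 and 833 reads. The groups did not come near each other, and the log2 change was 5.54 (SE 0.12, FDR 1.47e-09). Obox6 lies at chr7:16418595-16425027 (NCBIM37), 26.3 kb from Crx (chr7:16451296-16465317), on the same minus strand and on the side toward which Crx is transcribed, and the annotation holds no gene between them. In the 24 libraries without the E168d2neo allele Obox6 ran from 0.205 to 4.16 CPM with a median of 1.12, and the E168d2/+ libraries, which carry the same frameshift without the cassette, held 1.42, 0.694 and 1.01 CPM. Against them the rise was 4.86 on the log2 scale (FDR 1.07e-05), and against R90W/+ it was 4.52. At P21 the E168d2neo/+ libraries held 3.38, 3.54 and 9.98 CPM and the WT libraries 0.628, 1.45 and 0.683 CPM, a gene under the CPM limit at that age. Apart from the small nuclear RNA symbol U6 (-0.37, FDR 0.0844), 6 genes within 200 kb of Crx were tested, and Obox6 was the 1 called. The other 5 lay between -0.29 and 0.26, with Gltscr2 at 0.26 (FDR 0.0192) and Crxos1, on the opposite strand just upstream of Crx, at -0.29 (FDR 0.0528). The part of the cassette in this rise was not tested.

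**Figure D2:**
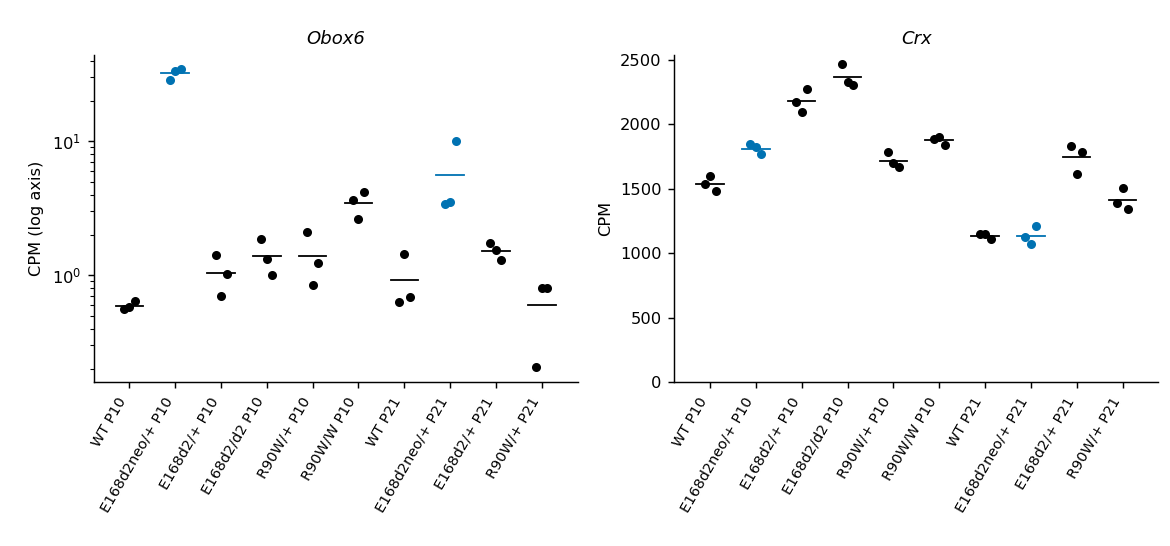
CPM of Obox6 (left, log axis) and of Crx (right) in the 3 libraries of each of the 10 groups of the series, with the E168d2neo/+ groups in blue. Obox6 stands at 28.8 to 34.4 CPM in E168d2neo/+ at P10 and at 3.38 to 9.98 CPM at P21, against at most 4.16 CPM in all groups without the allele, while Crx shows no such split.

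Rod phototransduction genes fell together but by very different amounts. Of the 21 genes tested, 18 fell, 0 rose and 7 were called, and the median was -0.61 beside 0.03 for all genes. In whole retina, fewer cells of a type and less RNA per cell cannot be told apart.

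Gnat1, the alpha subunit of rod transducin that relays the signal from the opsin, was at 716, 666 and 626 CPM in WT and at 113, 146 and 149 CPM in the mutant, a log2 change of -2.31 (SE 0.095, FDR 7.92e-08). The groups were far apart, and the mutant stood at 20.2% of WT. Guca1b and Rcvrn fell further than any other gene on the list. Guca1b, which encodes a guanylate cyclase activator, held 36.2, 35.02 and 30.8 CPM in WT and 5.48, 3.68 and 3.67 CPM in the mutant (log2 -2.98, SE 0.15, FDR 2.82e-07). Recoverin (Rcvrn), a calcium sensor of the photoreceptor cascade, was at 550, 547 and 565 CPM in WT and at 91.9, 109 and 116 CPM in E168d2neo/+. Both genes were therefore far outside their WT range. The rod sodium, calcium and potassium exchanger Slc24a1 (log2 -1.58), the guanylate cyclase Gucy2f (-1.14) and the phosphodiesterase subunit Pde6a (-1.01) were called as well, and Pde6a, at 559, 579 and 534 CPM against 253, 288 and 289 CPM, sits just past the 2-fold limit.

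The remaining rod genes reached less than 2-fold. Guca1a (-0.92), the cyclase Gucy2e (-0.85), the inhibitory phosphodiesterase subunit Pde6g (-0.70) and the channel subunit Cngb1 (-0.61) fell most among them. The catalytic partner of Pde6a, Pde6b, fell by 0.25 on the log2 scale, from 1406.6, 1379.1 and 1382.2 CPM to 1133.8, 1221.7 and 1143.6 CPM. Rod arrestin (Sag) fell by 0.18 (FDR 0.0379). The 3 genes that did not pass were the transducin beta subunit Gnb1 (-0.08), phosducin Pdc (-0.10) and the GTPase accelerator Rgs9 (0.02), so partners within a complex moved by unequal amounts: transducin alpha was at 20.2% of WT while the gamma subunit Gngt1 was at 77.3%.

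Cone phototransduction genes fell further at the median (-1.03), with 8 of 11 falling, 2 rising, 6 called lower and 1 called higher. Medium-wave opsin (Opn1mw) was at 25.9, 25.0 and 21.1 CPM in WT and at 5.62, 6.01 and 6.19 CPM in E168d2neo/+. Pde6h, the inhibitory subunit of cone phosphodiesterase, was at 61.2, 61.8 and 65.4 CPM in WT and at 15.8, 15.8 and 15.7 CPM in the mutant. The 2 genes were at 25.1% and 25.2% of WT (log2 -1.99 each), with no overlap between the groups. Short-wave opsin (Opn1sw) held 220, 209 and 206 CPM in WT and 70.3, 69.9 and 61.7 CPM in the mutant (log2 -1.65, FDR 4.15e-08). Cone arrestin Arr3 (-1.72), the channel subunit Cnga3 (-1.61) and cone transducin alpha Gnat2 (-1.03) were the other called genes. The beta subunit of the same channel went the other way. Cngb3 was at 34.9, 40.1 and 35.1 CPM in WT and at 80.9, 68.6 and 78.8 CPM in E168d2neo/+ (log2 1.05, SE 0.080, FDR 8.03e-06), so the 2 subunits of 1 channel separated, Cnga3 falling and Cngb3 rising without overlap of the groups in either. Transducin beta of cones, Gnb3, rose by 0.33, the cone phosphodiesterase Pde6c fell by 0.52, Gngt2 fell by 0.61, and the exchanger Slc24a2 was at -0.03 (FDR 0.822).

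**Figure D3:**
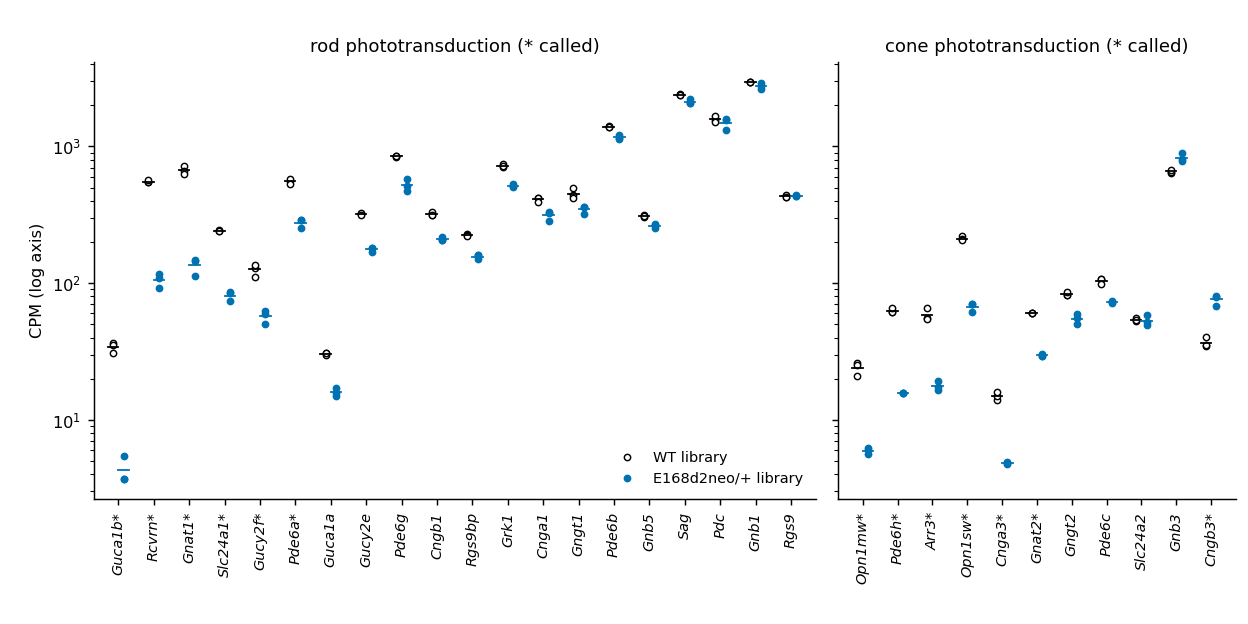
CPM on a log axis in each library for 20 rod and 11 cone phototransduction genes, with WT and E168d2neo/+ libraries as separate points, bars at the group means and an asterisk on called genes. Guca1b, Rcvrn and Gnat1 lie far below WT while Gnb1, Pdc and Rgs9 lie on it, and among cone genes Cngb3 is the 1 called gene above WT.

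As a share of all CPM, the rod phototransduction list made up 2.00% ± 0.02 (SD, n = 3) in WT and 1.28% ± 0.03 in E168d2neo/+. The 85 genes called lower made up 1.23% of CPM in WT and 0.404% in the mutant, a fall set in advance by their choice in these same libraries. For the rod list the exact two-sided permutation test over the 6 libraries gave p = 0.1, the smallest p it allows with 3 libraries in each group.

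Promoters of the genes called lower were searched for the core letters that CRX prefers. TAATCC or TAATCT was present on either strand within the 250 bases before the start of 22 of 75 RefSeq promoters (29.3%) of genes called lower, for 60 of the 85 genes that had an entry, against 9.20% of the 11080 promoters of tested genes and 12.8% of all 32851 promoters. For genes called higher it was present in 5 of 25 promoters (20%). TAATCC alone was in 17.3% of promoters of genes called lower and 16% of those called higher, against 5.23% of those tested. TGCTGA, the start of the element bound by NRL, was in 25.3%, 12.5% and 16.1% of promoters of lower, tested and all genes, and in 12% of those called higher. A match is a description of letters and not a binding site. The promoters printed below are of 1 rod and 4 cone phototransduction genes that were called lower, 250 bases each from GRCm38.p6, 5′ to 3′ toward the start on the gene's own strand, and capitals mark TAATCC or TAATCT, or GGATTA where TAATCC is on the other strand. They lie at chrX:142196937-142197186 on the minus strand for Gucy2f, chrX:100605247-100605496 on the plus strand for Arr3, chr6:29380514-29380763 on the minus strand for Opn1sw, chr6:136954273-136954522 on the plus strand for Pde6h and chrX:74127216-74127465 on the plus strand for Opn1mw.
Gucy2f promoter: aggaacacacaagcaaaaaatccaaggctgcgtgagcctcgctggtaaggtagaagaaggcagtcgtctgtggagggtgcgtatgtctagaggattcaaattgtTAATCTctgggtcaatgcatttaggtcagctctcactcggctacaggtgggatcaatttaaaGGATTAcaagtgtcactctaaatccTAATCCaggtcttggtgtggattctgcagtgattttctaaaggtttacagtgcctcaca
Arr3 promoter: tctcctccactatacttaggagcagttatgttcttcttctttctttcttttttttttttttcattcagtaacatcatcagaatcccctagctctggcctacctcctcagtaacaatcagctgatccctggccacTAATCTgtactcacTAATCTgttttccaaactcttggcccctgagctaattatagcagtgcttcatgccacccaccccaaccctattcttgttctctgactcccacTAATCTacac
Opn1sw promoter: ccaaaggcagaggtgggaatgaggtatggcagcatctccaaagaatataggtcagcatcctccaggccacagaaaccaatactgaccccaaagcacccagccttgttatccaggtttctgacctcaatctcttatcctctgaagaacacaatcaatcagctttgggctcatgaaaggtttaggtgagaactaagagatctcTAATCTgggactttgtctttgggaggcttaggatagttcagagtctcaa
Pde6h promoter: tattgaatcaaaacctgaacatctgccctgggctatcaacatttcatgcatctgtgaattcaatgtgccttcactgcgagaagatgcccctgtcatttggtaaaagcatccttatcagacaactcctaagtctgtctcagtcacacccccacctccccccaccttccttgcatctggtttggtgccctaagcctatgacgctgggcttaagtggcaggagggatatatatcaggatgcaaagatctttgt
Opn1mw promoter: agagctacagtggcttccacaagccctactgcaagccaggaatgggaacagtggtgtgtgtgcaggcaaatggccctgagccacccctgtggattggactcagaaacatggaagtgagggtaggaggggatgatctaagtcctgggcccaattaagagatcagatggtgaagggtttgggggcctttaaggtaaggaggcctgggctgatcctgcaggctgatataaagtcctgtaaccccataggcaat

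Gucy2f held 3 matches, at 146, 84 and 59 bases before the start, Arr3 held 3, at 116, 102 and 10 bases, and Opn1sw 1, at 49 bases. Pde6h and Opn1mw, which fell as far as any cone gene, held 0 in this window, which says only that these letters are not in it. Fall and matches did not run in parallel among the printed genes, and a relation between them was not tested. Of the called phototransduction genes with an entry that are not printed, Slc24a1 and Cnga3 held 0 matches and Gnat2 held 1.

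Genes for the visual cycle, which regenerates the chromophore of the opsins, changed less. Of 9 tested, 6 fell and 2 rose, with a median of -0.38. Rdh12, a retinol dehydrogenase of photoreceptor inner segments, was the 1 called gene, at 230.2, 226.7 and 230.0 CPM in WT and 107, 112 and 111 CPM in the mutant (log2 -1.06, FDR 1.3e-07). Rdh8 (-0.88), an outer segment dehydrogenase, and Abca4 (-0.66), the outer segment retinoid flippase, also fell, whereas Rdh10 (0.45) and Rdh13 (0.26) rose. Rbp3, the carrier of retinoids between photoreceptors and pigment epithelium, fell by 0.21 on the log2 scale.

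The list for outer segment structure, which is not limited to structural proteins, had a median nearer to 0 than either phototransduction list. Of 24 tested, 14 fell and 1 rose, with 3 called and a median of -0.27. Those called were the actin bundler Fscn2 (-1.48), the thioredoxin-like Nxnl1 (-1.30) and Aipl1 (-1.06), the chaperone of rod phosphodiesterase. Aipl1 was read at 454, 446 and 470 CPM in WT and at 207, 240 and 212 CPM in E168d2neo/+. The disc rim protein Prph2 fell by 0.39, while its partner Rom1 (0.08), the disc protein Prom1 (0.15) and the axonemal Rp1 (-0.13) did not pass the FDR limit. Protocadherin Pcdh15 rose by 0.58.

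None of 38 cilium and transport genes was called by limma, although 19 fell, 0 rose and 22 had an unadjusted p under 0.05. The median was -0.18, and the largest falls were in Myo7a (-0.97) and Fam161a (-0.76), an actin motor and a ciliary protein of photoreceptors, and in the chaperonin-like Bbs12 (-0.92). At the ribbon synapse, where photoreceptors release glutamate, 15 of 26 genes fell, 2 rose and 3 were called lower, with a median of -0.27. The potassium channel Kcnj14 was at 13.3, 14.2 and 11.2 CPM in WT and at 2.42, 3.16 and 3.34 CPM in the mutant (log2 -2.08, SE 0.14, FDR 3.74e-06). The calcium sensor Cabp4, which regulates the presynaptic calcium channel, was at 57.0, 56.5 and 60.1 CPM in WT and at 17.9, 20.04 and 19.0 CPM in the mutant. Both genes and the scaffold Mpp4 (-1.12) left the WT range, whereas the active zone proteins Bsn (0.01), Pclo (0.09) and Rims1 (0.01) did not pass the test. Cplx3 (0.33) and the vesicle protein Syp (0.23) rose.

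The transcription factors of photoreceptors did not fall as a group: of 25 tested, 9 fell and 10 rose, with a median of -0.02. Nrl, the factor that sets rod identity, was at 1240.4, 1269.6 and 1256.8 CPM in WT and at 1160.1, 1296.8 and 1208.0 CPM in E168d2neo/+, with overlapping groups (log2 -0.04, FDR 0.638). Nr2e3, which represses cone genes in rods, rose by 0.29 on the log2 scale (FDR 0.00318), and Otx2, the factor upstream of Crx, rose by 0.47 (FDR 0.000414). Samd7, a photoreceptor-enriched repressor, was at 403, 419 and 419 CPM in WT and at 704, 703 and 698 CPM in the mutant (0.76, FDR 1.25e-06), a rise in every library. Rxrg, a retinoid receptor of cones, rose by 0.77 and Insm1 by 0.56. Among those that fell, Esrrb, a rod nuclear receptor, changed by -0.94, Mef2c by -0.65, Rorb by -0.46 and Thrb, the thyroid hormone receptor of medium-wave cones, by -0.37. Ppara (-1.31), a receptor for fatty acids, was called.

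Pax7 had the largest fall of all called genes. This paired-box factor, best known from muscle stem cells and placed in the list of transcription factors with earlier results known, was at 16.5, 17.3 and 17.6 CPM in WT and at 0.274, 0.311 and 0.165 CPM in E168d2neo/+. That is 263, 241 and 301 reads against 6, 6 and 4 reads, at 2.0% of WT (log2 -5.65, SE 0.18, FDR 1.14e-08). The E168d2/+ libraries held at most 0.126 CPM and the R90W/+ libraries 4.67, 3.604 and 3.16 CPM. At P21 Pax7 was at 0.128 to 0.250 CPM in WT itself.

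Other genes among the largest falls were Alpl, tissue-nonspecific alkaline phosphatase, at 91.0, 85.9 and 94.2 CPM in WT and 9.46, 11.7 and 10.9 CPM in the mutant (log2 -3.08), and Zan, a sperm zonadhesin, at 6.96, 8.56 and 7.82 CPM against 0.960, 0.777 and 0.949 CPM (-2.99). They were at 11.9% and 12.6% of WT. Tnfrsf8 (-2.93), Mc1r, the melanocortin receptor (-2.42), and Lrrc2 (-2.13) followed, as did the transcript AI847159, at 63.9, 67.7 and 63.5 CPM in WT and 14.7, 14.4 and 15.8 CPM in the mutant (-2.11). Of the called genes on none of the lists, 39 were lower, and those with the highest mean level were the oxysterol-binding Osbp2 (294, 303 and 300 CPM against 145, 152 and 146 CPM), Psd2, a guanine nucleotide exchange factor of the Arf family (256, 257 and 266 CPM against 60.2, 66.6 and 57.8 CPM), the retbindin gene Rtbdn (-1.34), mitochondrial creatine kinase Ckmt1 (-1.29) and Gm626 (-1.79). As for every called gene, none of these 5 overlapped with WT in any library. Drd4, the dopamine D4 receptor of photoreceptors, fell by 1.93 on the log2 scale, from 31.9, 28.9 and 25.3 CPM to 5.62, 8.49 and 8.50 CPM.

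The study also gives broad lists of rod-enriched and cone-enriched genes, defined in libraries outside this series from retinas with and without Nrl. Of 237 rod-enriched genes tested, 118 fell and 28 rose, 31 were called lower and 2 higher, and the median was -0.26. Of 378 cone-enriched genes, 44 fell and 90 rose, 11 were called lower and 13 higher, and the median was 0.08. The 2 rod-enriched genes called higher were the basement membrane collagens Col4a3 (1.38) and Col4a4 (1.15). Of the 13 cone-enriched genes called higher, Rpe65, Rgr, Ttr, Tyrp1 and Mfrp are also on the pigment epithelium list, so the cone-enriched list is not a pure list of cone genes.

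**Figure D4:**
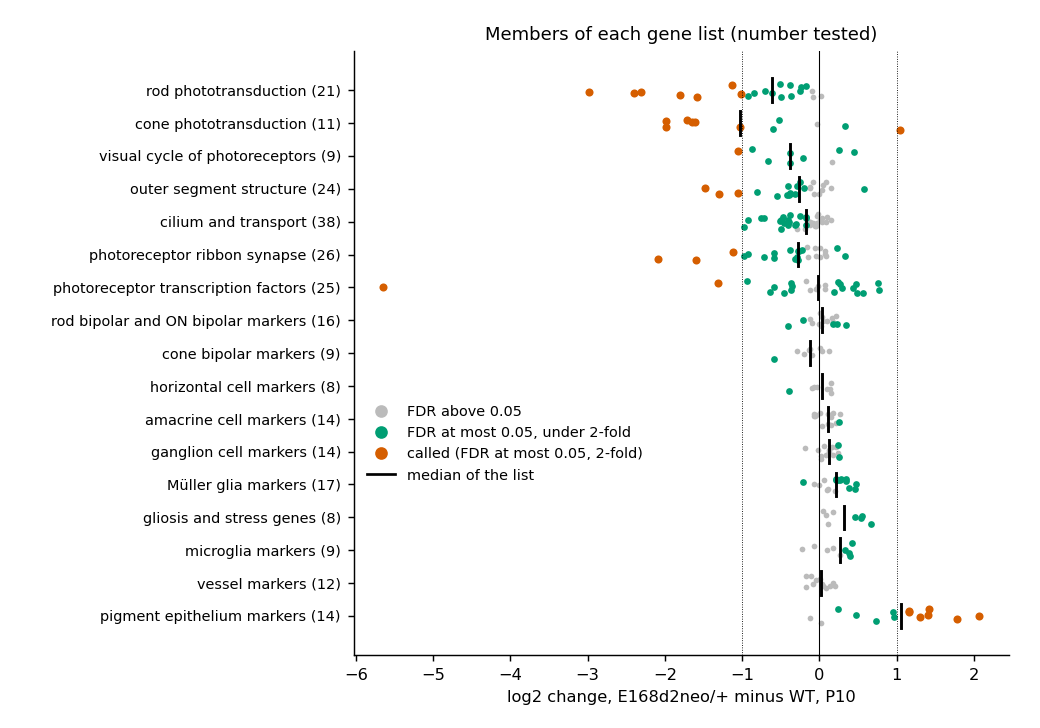
Log2 change of each gene in 17 lists, 1 point per gene, with called genes, genes past the FDR limit alone and other genes in separate colours and a bar at each median. The rod and cone phototransduction lists lie lowest (medians -0.61 and -1.03), the pigment epithelium list lies highest (1.06), and lists of inner retinal neurons straddle 0.

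Pigment epithelium markers rose as a block. Of 14 tested of the 19 on the list, 12 rose, 0 fell and 7 were called higher, with a median of 1.06. Rpe65, the isomerase of the visual cycle in that tissue, was at 4.07, 1.29 and 2.04 CPM in WT and at 10.4, 7.51 and 11.3 CPM in E168d2neo/+ (log2 2.07, SE 0.32, FDR 0.00134), with no overlap but a wide spread in WT. Pmel, a melanosome protein, was at 31.0, 17.6 and 23.4 CPM against 55.2, 73.2 and 59.7 CPM, and the transthyretin gene Ttr at 50.1, 27.3 and 36.02 CPM against 82.7, 102 and 114 CPM. For each of these genes the lowest mutant library was above the highest WT library. Rgr (1.77), Dct (1.30), Tyrp1 (1.16) and Mfrp (1.16) were the others called. The summed level of the list was 903 to 963 CPM in WT and 1378 to 1397 CPM in the mutant. The neural retina also expresses some members, Otx2 and Rlbp1 among them, and the pigment epithelium lies against the photoreceptors in the eye. The list had a median of 0.81 in E168d2/+ and of 0.46 in R90W/+ against the same WT libraries, and 0 of its 14 genes differed between E168d2neo/+ and E168d2/+ (limma, FDR alone), with 4 at an unadjusted p under 0.05. Against R90W/+ 8 of the 14 were higher in E168d2neo/+ and 0 lower, with 12 at an unadjusted p under 0.05. At P21 the list had a median of 0.06 over 15 genes, of which Otx2 and Ezr rose and Krt18 was called lower (-1.77). The part of pigment epithelium in the other rises was not tested. Without the genes of that list, 35 genes were called higher.

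Collagen genes were counted by their symbols, a choice made after their values were seen. Of 33 tested, 19 rose, 1 fell and 6 were called higher, with a median of 0.28, and the count that rose was 12 without WT replicate B. Col16a1, a fibril-associated collagen, was at 5.08, 4.17 and 4.203 CPM in WT and at 25.5, 31.3 and 23.9 CPM in the mutant (log2 2.55, SE 0.12, FDR 2.3e-07). Col8a1, Col8a2, Col4a3, Col4a4 and Col1a1 were called higher too, between 1.06 and 1.53, and the highest of their values was 40.7 CPM, for Col8a1 in the mutant. The cation transporter Atp13a4 (2.39), the interferon regulatory factor Irf5 (1.80), the exchange factor Rgnef (1.59), Pdzrn4 (1.55), the chloride channel Clic6 (1.51) and Gm20546 (1.47) were among the 12 largest rises. Of called genes on none of the lists 25 were higher, with Flot2, a membrane raft scaffold, the most abundant at 82.6, 86.4 and 89.6 CPM in WT and 182, 220 and 200 CPM in the mutant. Tmem181b-ps (1.38), prostaglandin D synthase Ptgds (1.09), Rgnef and Klhl1 (1.13) followed it. Dynlt1b, a dynein light chain, at 4.70, 4.82 and 4.85 CPM against 14.9, 21.6 and 20.5 CPM, and Tmem181b-ps are neighbours on chromosome 17 with near copies elsewhere, so that the split of their reads is uncertain.

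Most markers of inner retinal neurons did not pass the test. Among genes of rod and ON bipolar cells, 2 of 16 fell and 3 rose, none called, and Grm6, their glutamate receptor, fell by 0.22 while its channel Trpm1 rose by 0.34. Of 14 amacrine markers 1 rose, of 14 ganglion cell markers 2 rose and of 8 horizontal cell markers 1 fell, none called, with medians of 0.11, 0.12 and 0.03. Short lists for these cells are also found in the study. On those, limma had 1 of 8 amacrine genes rising, 1 of 9 horizontal cell genes falling, and 2 of 10 bipolar genes falling and 2 rising, none called. The short ganglion cell list had 4 of 9 rising, with a median of 0.26, and 2 of those were called, Ttr and Rgr, which are also on the pigment epithelium list. Of Müller glia markers 10 of 17 rose and 1 fell, none called, with a median of 0.21, and the count that rose was 5 to 10 over the alternatives of processing. Aqp4, the water channel of glial endfeet, changed by 0.47, clusterin Clu by 0.46 and glutamine synthetase Glul by 0.38, whereas Gfap, the filament gene of reactive glia, was at 0.05 and did not pass. Metallothioneins Mt1 (0.53) and Mt2 (0.66) rose, as did 4 of 9 microglia genes, including the complement gene C1qb (0.42). Of 12 vessel markers limma called 0, with 0 past the FDR limit and 0 at an unadjusted p under 0.05. Egr1, an immediate early gene, was called higher (1.07), and 5 of 6 such genes rose. Of 4 astrocyte and optic nerve markers tested, 1 rose and 0 fell, none called, with a median of 0.04. The 1 that rose was the myelin gene Mbp, by 0.81, from 36.5, 37.4 and 33.9 CPM to 63.0, 65.5 and 60.2 CPM.

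Against E168d2/+ at P10, which carries the frameshift without the cassette, E168d2neo/+ differed at the FDR alone in 102 of 11967 genes (0.852%), 40 lower (0.334%) and 62 higher (0.518%). The genes called against WT were chosen on the same E168d2neo/+ libraries, so their direct differences are not independent of that choice. Of the 85 genes called lower, 56 reached the CPM limit here, of which 11 were less reduced in E168d2neo/+ and 0 more reduced, with a median of 0.21. The 11 rested on single libraries, and was 4 without E168d2/+ replicate B, 5 without E168d2neo/+ replicate A or C, 6 without E168d2neo/+ replicate B and 18 without E168d2/+ replicate C, where 3 were more reduced. With the replicate letter as a block it was 20, with 2 more reduced. Of 10 cone phototransduction genes tested, 4 were higher in E168d2neo/+ and 1 was lower. Pde6h was at 2.99, 2.33 and 1.71 CPM in E168d2/+, against the 15.7 to 15.8 CPM of E168d2neo/+ (log2 2.73, FDR 0.000245). Arr3 was at 7.73, 5.23 and 5.55 CPM in E168d2/+ and at 19.3, 16.7 and 17.5 CPM in E168d2neo/+ (1.53, FDR 0.00244). Pde6c (0.64, FDR 0.00244) was higher in E168d2neo/+ as well, and these 3 passed in all 11 settings tried. Opn1sw (0.47, FDR 0.0354) passed in 6 of the 11 settings. Cngb3 was lower in E168d2neo/+ (-0.52, FDR 0.0200, in 8 of 11 settings), so that the rise of this gene above WT was smaller than in E168d2/+.

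Of 20 rod phototransduction genes tested, 2 were higher in E168d2neo/+ and 1 was lower, and whether the rod and cone lists differ was not tested. Rcvrn was higher in E168d2neo/+ by 1.14 (FDR 0.0326, past the limit in 7 of 11 settings), and Gnat1, at 240, 191 and 73.5 CPM in E168d2/+, differed by -0.15 (SE 0.35, FDR 0.816). Cngb1 was higher by 0.41 (FDR 0.0489, in 5 of 11 settings), and Rgs9bp, the membrane anchor of Rgs9, was lower (-0.47, FDR 0.0451, in 6 of 11 settings). E168d2/+ replicate C was the lowest of its group for Gnat1, and 245 genes passed in this comparison when that library was left out. Of the 42 genes called higher, 4 had risen less in E168d2neo/+ than in E168d2/+, with Col16a1 (53.2 to 59.3 CPM in E168d2/+, log2 -1.09, FDR 0.00244), Col4a3 (-0.70) and Cngb3 the farthest apart, and 3 had risen more, Obox6, Dynlt1b (0.90) and Tmem181b-ps (0.73). The 4 ranged from 1 to 7 and the 3 from 1 to 4 with a library left out. Without E168d2neo/+ replicate C, 16 genes passed in all, and of the differences named here those of Pde6h, Arr3, Pde6c, Col16a1 and Obox6 remained.

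Against R90W/+ at P10, 701 of 11952 genes (5.87%) differed at the FDR alone, 356 lower (2.98%) and 345 higher (2.89%). Of the 64 genes called lower that were tested, 56 were lower in E168d2neo/+ than in R90W/+ and 0 higher, with a median of -1.10, and of the 42 called higher 28 were higher and 0 lower, with a median of 0.76. Guca1b (-2.76), Alpl (-2.86) and Drd4 (-2.66) were the farthest below R90W/+ among the called genes that reached the CPM limit here, which Pax7 did not, and Obox6 (4.52), the fatty acid transporter Slc27a2 (2.42) and 2010001M09Rik (2.17) the farthest above. Phototransduction genes were mostly below R90W/+, with 15 of 21 rod and 7 of 11 cone genes lower and 1 cone gene, Cngb3, higher. R90W/+ replicate A was the lowest of its group for Gnat1 (505 CPM beside 963 and 861 CPM) and for Opn1mw (8.51 CPM beside 31.2 and 28.5 CPM). Set against WT, with the WT libraries shared by all these comparisons, the 85 genes had a median of -1.45 in E168d2neo/+, -1.61 in E168d2/+, -0.41 in R90W/+ and -2.78 in homozygous E168d2/d2. The 26 genes called higher that were tested in all of these had medians of 1.31, 1.05, 0.52 and 1.32 in the same order. Both sets were chosen in E168d2neo/+, which favours larger values there.

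The P21 libraries are separate from those used at P10, and 1 of them, E168d2neo/+ replicate C, holds reads of lens crystallins. Of the 85 genes called lower at P10, 78 were tested at P21, all 78 had a negative sign, 69 fell, 0 rose and 29 were called, with a median of -0.89 where the same genes had -1.46 at P10. Without replicate C, 67 fell and 30 were called. In all, 80 genes (0.672%) were called at P21, 66 lower (0.554%) and 14 higher (0.118%), and at the FDR alone 6.11% of genes fell and 6.36% rose, and the 29 shared genes are 34.1% of the P10 list and 43.9% of the P21 list. Of the 42 genes called higher, 30 were tested, 21 kept their sign, 8 rose and 4 were called, with a median of 0.19 beside 1.31 at P10. That median turned to -0.09 without WT replicate C, with 13 of 30 keeping their sign, and was 0.44 without WT replicate B and 0.37 without E168d2neo/+ replicate A. Without WT replicate A 5 of the genes passed in the opposite direction.

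For the rod genes with the deepest falls at P10 the gap was smaller at P21. Gnat1 reached 9788.3, 10527.0 and 10217.0 CPM in WT and 9333.3, 8969.1 and 8828.0 CPM in E168d2neo/+ at P21, a difference of -0.17 that did not pass (FDR 0.0873). Guca1b, at 799 to 925 CPM in WT, was at -0.49 and Rcvrn at -0.60 (both FDR under the limit). The level of these genes in WT itself had risen steeply between the ages. Several cone genes stayed far below WT. Opn1sw was at 377, 423 and 349 CPM in WT and at 139, 117 and 144 CPM in the mutant (-1.52), Gnat2 at -1.22, Cnga3 at -1.19 and Pde6h at -1.08, and 4 of 11 cone genes were called lower against 0 of 21 rod genes, of which 17 fell. Cngb3 stayed higher at P21 (0.86, FDR 3.32e-06). Zan diverged instead, at 77.3 to 93.1 CPM in WT and 1.01 to 1.27 CPM in the mutant at P21 (-6.12, FDR 1.78e-10).

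The change from P10 to P21 was tested as an interaction over the 12 libraries, where 757 of 12380 genes (6.11%) passed at the FDR alone, 312 with a lower (2.52%) and 445 with a higher (3.59%) change at P21. For the genes called at P10 this test shares the P10 libraries with their selection, which favours a smaller value at P21. The source given for the WT mice also differs between the ages, and its part was not tested. Of the 85 lower genes 56 passed, 50 with a smaller fall at P21 and 6 the other way, and of the 42 higher genes 22 passed, 20 with a smaller rise at P21. The 20 became 9 without WT P10 replicate B, 12 without WT P21 replicate B or E168d2neo/+ P10 replicate C, and 13 without WT P10 replicate C or with a replicate block. The channel gene Kcng1 and Col4a3 rose further, and Kcng1 stood at 2.20 to 3.16 CPM in WT and 16.3 to 21.5 CPM in the mutant at P21. Among phototransduction genes the change of 10 of 21 rod genes and 3 of 11 cone genes was less negative at P21, and that of 1 gene in each list was more negative. For Opn1sw the difference between ages was 0.13 and did not pass.

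**Figure D5:**
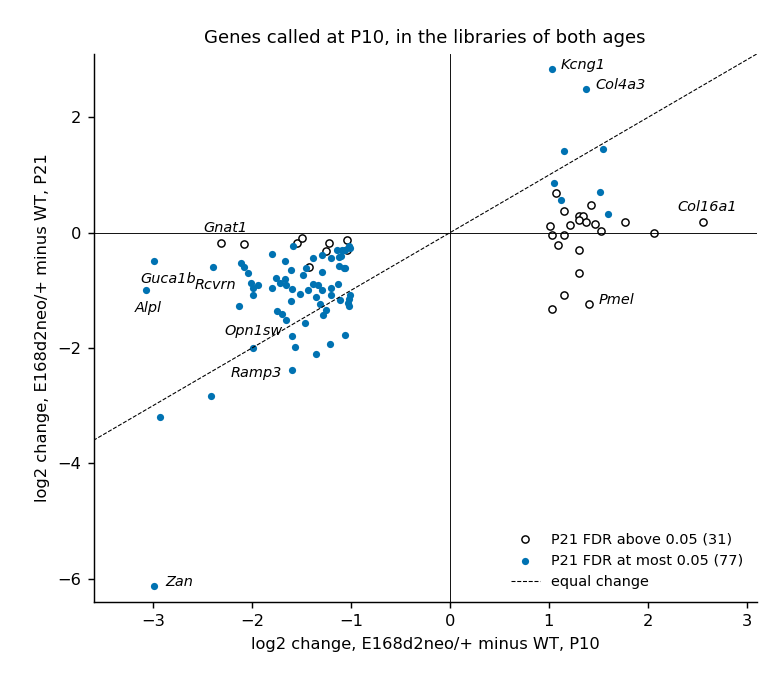
Log2 change in E168d2neo/+ relative to WT at P10 (x axis) and at P21 (y axis) for the 108 genes called at P10 that were also tested at P21, 1 point per gene, with 77 genes past the FDR limit at P21 and 31 not marked apart and a dashed line at equal change. Most genes called lower lie above the line on its negative side, with smaller falls at P21, and Zan lies far below it.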

How the data were processed

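RNA of whole mouse retina was sequenced as single reads. The authors used TopHat2 2.0.5 for alignment (mm9) and HTSeq 0.6.1p1 to assign reads to the UCSC gene track, and deposited CPM, reads scaled to library size, for each library. The methods name poly(A) selection and the labels also Ribo-Zero depletion, and use of strand in counting is not given in the sources used here. The deposited table also holds log2 fold changes, log2 mean CPM, p-values and FDR that the authors made with edgeR 3.6.8, and none of these comparison columns was used. All 30 library columns matched a sample, and 20 symbols that a spreadsheet had turned into dates are not named.

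Genes at 5 CPM or more in all 3 libraries of either group were tested on log2(CPM + 0.1) with limma 3.58.1 (R 4.3.3, variance trend, two-sided, Benjamini-Hochberg over all genes tested), each comparison on its own 6 libraries and the age interaction on 12. A gene was called at an FDR of 0.05 or less and a 2-fold change, or at the FDR alone between mutants and between ages. Depth was read from the steps between low CPM values. Library letters A to C did not pair the E168d2neo/+ and WT libraries at P10 (correlations of deviations 0.027, -0.43 and -0.33). Pairing by letter was not checked for the other groups. On simulated data for 11831 genes, 198 of 200 changed genes (log2 1.5, above the fold limit) were recovered at the FDR and fold limits. Of the unchanged genes 0 were called and 4 passed at the FDR alone. The simulated noise was independent for each gene, so shifts shared by many genes of a library were not covered. Tables and figures were made with Python 3.11.15.

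Named genes are Crx, the 12 largest falls and rises, list members, the 5 most abundant called genes on no list in each direction, and the 3 largest in each direction of the other comparisons. Some genes that the rule names are not reported here, although the counts and list medians include them. Genes singled out beyond this rule, such as Kcng1, were chosen after their values were seen, as was Mbp within its list. The comparison, the members and the gene lists were chosen with earlier results of these data known. Replicates were separate pools of animals. Promoter and gene positions were read from RefSeq GRCm38.p6 and from NCBIM37 and not converted.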

Additional observations from a re-analysis of the deposited data

Results flagged for a closer look

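The change in E168d2neo/+ against WT differed between P21 and P10 (limma interaction, FDR of 0.05 or less) for several genes called at P10, of which the 3 farthest apart in each direction follow. The P10 libraries also chose these genes, which favours a smaller change at P21. The WT mice at P21 were littermates of the mutants, and the part of this source was not tested. The log2 change at P21 minus that at P10 was -3.14 for Obox6, whose level in E168d2neo/+ dropped from 28.8 to 34.4 CPM at P10 to 3.38 to 9.98 CPM at P21. It was -3.14 for Zan, which WT retinas carried at 6.96 to 8.56 CPM at P10 and 77.3 to 93.1 CPM at P21, while E168d2neo/+ stayed at 0.777 to 1.27 CPM at both ages. For Pmel it was -2.65 (FDR 0.0195), a melanosome gene whose P21 libraries varied widely, at 33.0, 132 and 149 CPM in WT and 53.4, 46.2 and 19.9 CPM in E168d2neo/+, and it passed in 14 of 17 settings. For Pax7 it was 4.24, a gene at most at 0.250 CPM in every P21 library of the comparison. For Guca1b it was 2.50 and for Gnat1 2.14, both rod genes whose WT level rose between the ages, from 30.8 to 36.2 CPM to 799 to 925 CPM for Guca1b and from 626 to 716 CPM to 9788.3 to 10527.0 CPM for Gnat1. The part of these changes of level in the difference was not tested.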

How the results depend on the processing

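The counts of genes called at P10 kept within 1.5 times of 127 under all 16 alternatives run (other scalings, filters, added values, models and each library left out), and 105 genes, 74 lower and 31 higher, were called in every one. Of the 61 genes named by the rule, 58 had the same call throughout. Egr1 (0.95 without E168d2neo/+ replicate A), Pde6a (-0.95 without that library, -0.98 without WT replicate B) and Ptgds (0.96 without WT replicate B) slipped under 2-fold, and none reversed.

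Counts at the FDR alone moved more. At P10 they ranged from 1132 (without WT replicate B) to 3356 (without E168d2neo/+ replicate B) beside 2198 with all libraries. Against E168d2/+ they ranged from 16 (without E168d2neo/+ replicate C) to 245 (without E168d2/+ replicate C) beside 102, and against R90W/+ from 275 (without R90W/+ replicate C) to 1006 (without R90W/+ replicate A) beside 701. At P21 they ranged from 868 to 1467 beside 1486, and for the difference between ages from 415 to 900 beside 757. With no filter on low values 24 genes in place of 14 were called higher at P21. The library letters did not pair E168d2neo/+ with WT at P10 and were not checked for the other groups. A replicate block gave 1264 genes at P10 at the FDR alone, 602 against E168d2/+ and 882 against R90W/+. It gave 941 at P21 and 281 for the ages, with 127 genes still called at P10. The cause of these shifts was not tested.

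The planned count-based tests on reads recovered from CPM were not run, although values under 1000 reads were whole to within 0.1 reads in the 6 P10 libraries. With 3 libraries in each group an exact permutation p cannot go below 0.1, and a value of 0 allows up to 3 reads, or 0.124 to 0.216 CPM at P10.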
